A study of Mus musculus with 12 samples.

Results

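Rab GTPases are the largest family of Ras-related small G proteins, and each Rab marks particular membranes of the secretory or endocytic route. A Rab is switched on when an exchange factor loads it with GTP and off when a GTPase-activating protein (GAP) speeds GTP hydrolysis, and in the GDP form it is carried through the cytosol by a GDP dissociation inhibitor (GDI). In the β cell the Rab3 and Rab27 groups sit on insulin granules, where with their effectors they tether and prime granules at the plasma membrane, while other Rabs serve the endoplasmic reticulum, the Golgi, endosomes and lysosomes.

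The Rab genes were taken from the platform annotation as the symbols made of Rab, a number from 1 to 43 and at most a short suffix. This gave 54 genes of the 15964 named on the arrays, with 102 probe sets of 36701. A gene was represented by its probe set with the highest mean over all 4 populations. A further 4 symbols match the letters but are not Rab GTPases (Rab3ip, Rab5if, and the antisense genes Rab10os and Rab26os) and were kept apart, as was Rab44.

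MIN6 is a mouse insulinoma line from a mouse whose β cells express an SV40 T antigen transgene, which all groups therefore share, and the study compared its parental cells with clone 4, a subclone, at low and at high passage. The populations were parental cells at passages 17 to 20 (Pr-LP), parental cells at passages 35 to 40 (Pr-HP), clone 4 at passages 17 to 20 (C4-LP) and clone 4 at passages 40 to 50 (C4-HP). By the study's secretion assays Pr-LP, C4-LP and C4-HP were responder cells, which release insulin on glucose stimulation, and Pr-HP non-responder cells. RNA of each population was measured on a set of 3 Affymetrix mouse chips, MG_U74v2 A to C, with 1 array per chip and 12 arrays in all. Clone 4 is a single clone, its high passage range is not that of Pr-HP, and no population has a replicate array, so the spread below is that between populations and precision is limited by the few arrays.

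Values are deposited probe set intensities in arbitrary linear units, compared only within a probe set. The floor, below which values were treated as equal, was 67.3 units for chip A, 58.6 units for chip B and 29.1 units for chip C. A probe set was tested when at least 1 array exceeded the 40th percentile of its chip, which 48 of the 54 Rab genes passed. Rab30 and Rab9b lay under the floor in every population, at 50.0 to 56.5 units on chip B and at 8.26 to 9.49 units on chip C. Low values were also found for Rab33a (65.0 to 69.6 units), Rab32 (102 to 113 units), Rab7b (78.9 to 87.4 units) and Rab40b (70.3 to 91.9 units). These 6 genes were not tested.

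All 10 β-cell markers with a named probe set were above the floor in every population, but they were not equal. Pr-HP was below all 3 responder populations for 6 of them, such as Neurod1 (211 units, against 264 to 604), beside 27.8% of all genes. It was above all 3 for 3, such as Pcsk1 (1379 units, against 425 to 771), beside 29.6% of all genes. The median log2 difference of these markers between responder cells and Pr-HP was 0.31, beside -0.0004 over all genes. Ins2 read 14771 to 15526 units, levels at which the study doubted that the signal is still linear. Markers of other cells differed too. The summed level of 6 other islet markers was 2035 units in Pr-LP, 11819 in Pr-HP, 4463 in C4-LP and 4188 in C4-HP. Glucagon (Gcg) alone read 10552 units in Pr-HP, 3175 in C4-LP and 2915 in C4-HP, while in Pr-LP it read 502 units. Ppy was highest in Pr-LP, at 811 units against 524 to 560 units elsewhere. The 10 macrophage and fibroblast markers summed to 4733 units in Pr-HP and to 3148 to 3340 units in the responder cells, a gap made by Cd68, which read 1785 units in Pr-HP and 177 to 210 units elsewhere, while Ptprc and Lyz2 were under the floor in all populations. The 8 duct and acinar markers summed to 3285 units in Pr-HP and 3687 to 4257 units in the responder cells. As a sign of RNA quality, Pr-HP had the lowest 3′ to 5′ ratio of the Gapdh controls on all 3 chips, at 0.867 on chip A against 0.968 to 1.05 in the responder cells. For β-actin this held on chips A and B, and on chip C, which carries Rab37 and the chosen Rab3c probe set, Pr-HP (1.34) lay within the responder range (1.30 to 1.42). The part of these differences in the Rab values below was not tested. In bulk RNA, fewer cells of a type and less RNA per cell cannot be told apart.

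The first comparison asked which Rab genes separated responder cells from Pr-HP. None of the 48 passed limma at an adjusted p of 0.05, and 0.0815% of all 12267 genes tested did (0.0814% of all probe sets). At an unadjusted p of 0.05 the count in limma was 3 of 48 Rab genes (6.25%; Rab11a, Rab13 and Rab3c), beside 9.94% of all genes. Past 2-fold, Rab37 was the 1 gene higher in responder cells (2.08%, beside 1.02% of all genes) and Rab3c the 1 gene lower (2.08%, beside 1.5% of all genes). The median log2 difference, responder cells minus Pr-HP, was -0.011 over the 48 Rab genes and -0.0004 over all genes. Most Rab genes were flat across the populations, in a share somewhat below that of all genes. In 34 of 48 (70.8%) the highest value was within 1.5 times the lowest, beside 78.6% of all genes, and in 4 of 48 (8.33%; Rab24, Rab37, Rab3c and Rab3d) it was over 2 times the lowest, beside 7.43% of all genes.

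**Figure D1:**
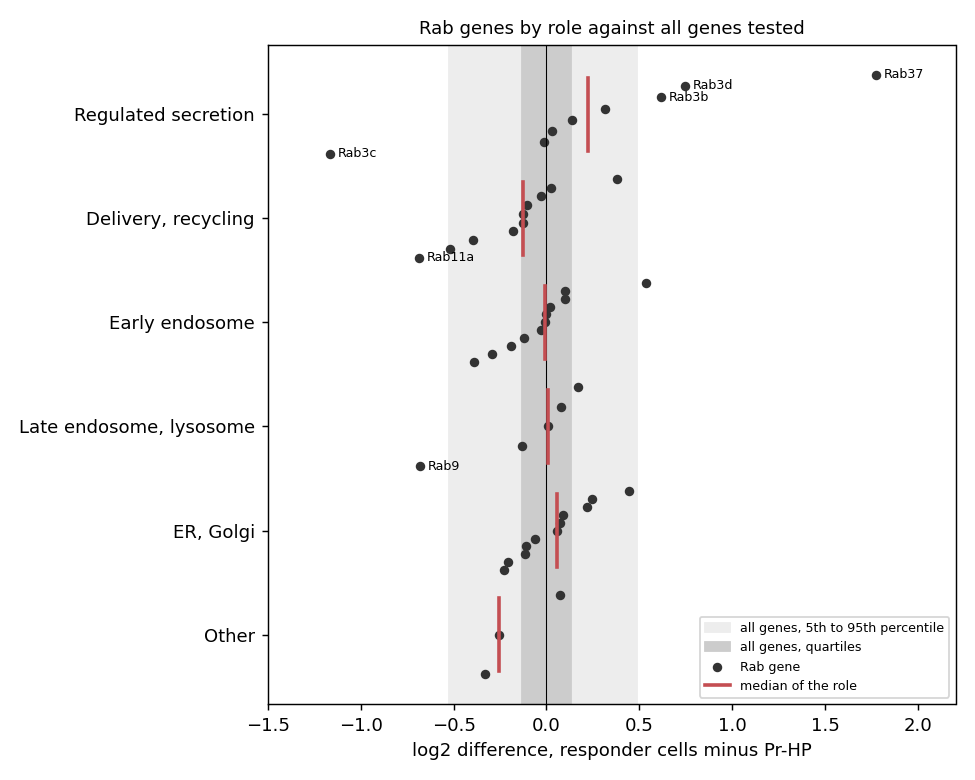
Log2 difference between the responder cells and Pr-HP for each of the 48 Rab genes tested (points), by role, with the median of each role (red line); grey bands give the quartiles and the 5th to 95th percentile of all 12267 genes tested. Regulated secretion holds both extremes, Rab37 at 1.77 and Rab3c at -1.16, and the medians of the roles lie between -0.25 and 0.23.

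The genes of regulated secretion were the most spread of the 6 role groups, but only through Rab37 and Rab3c. The log2 differences of its other genes ran from -0.013 to 0.74, beside -0.68 to 0.38 in polarised delivery and recycling. All 8 genes of regulated secretion were tested, and 6 had a higher mean in responder cells and 2 a lower one, with a median log2 difference of 0.23. Pr-HP was below all 3 responder populations for 5 of them (Rab27a, Rab37, Rab3a, Rab3b and Rab3d) and above all 3 for 1 (Rab3c). For Rab3a the gap was slight, at 508 units in Pr-HP against 510 to 532 in the responder cells. Over the 48 Rab genes Pr-HP was below all 3 in 11 (22.9%, beside 27.8% of all genes) and above all 3 in 17 (35.4%, beside 29.6% of all genes).

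Rab37, a Rab of secretory granules first studied in mast cells, gave 377 units in Pr-LP, 52.5 in Pr-HP, 127 in C4-LP and 121 in C4-HP on its only probe set. Pr-LP stood far above the rest and Pr-HP below all others, while both clone 4 populations were nearly equal and lay between them. The responder mean was 208 ± 146 units (SD, n = 3), and the log2 difference from Pr-HP was 1.77 ± 0.72 (SE) with a limma adjusted p of 0.547. Without Pr-LP the log2 difference was 1.24. With the cell line as a block it was 2.84, but both clone 4 populations are responder cells. The blocked value is therefore only Pr-LP minus Pr-HP, from a single array each. Set against the other populations together, Pr-LP was 2.02 higher on the log2 scale (limma unadjusted p = 0.019, adjusted p = 0.852). The study itself listed Rab37 from these arrays as lower in clone 4 than in Pr-LP, and not among its responder genes. Its place among the extremes is therefore not independent evidence.

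Rab3c, a Rab3 of regulated exocytosis known mainly from neurons, had the opposite order. Its chosen probe set read 89.6 units in Pr-LP, 208 in Pr-HP, 91.5 in C4-LP and 97.0 in C4-HP. The 3 responder populations lay close together at 92.7 ± 3.83 units (SD, n = 3) and did not overlap with Pr-HP, which was 2.24-fold higher. The log2 difference was -1.16 ± 0.093 (SE) with a limma adjusted p of 0.0590, just outside the threshold, and without C4-HP the adjusted p was 0.416. The fit without C4-HP has only 1 residual degree of freedom. Over 9 alternatives of processing and populations the log2 difference ran from -1.21 to -1.14. A second probe set, on chip B, read 161 units in Pr-HP and 15.3, 16.9 and 16.0 units in the responder populations Pr-LP, C4-LP and C4-HP. All its responder values were under the floor, which makes Pr-HP at least 2.74-fold higher. It passed the filter on low values through Pr-HP alone and so had to differ, and no test of it is given. The third probe set was nearly flat, from 59.7 to 71.0 units, with a log2 difference of -0.17.

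**Figure D2:**
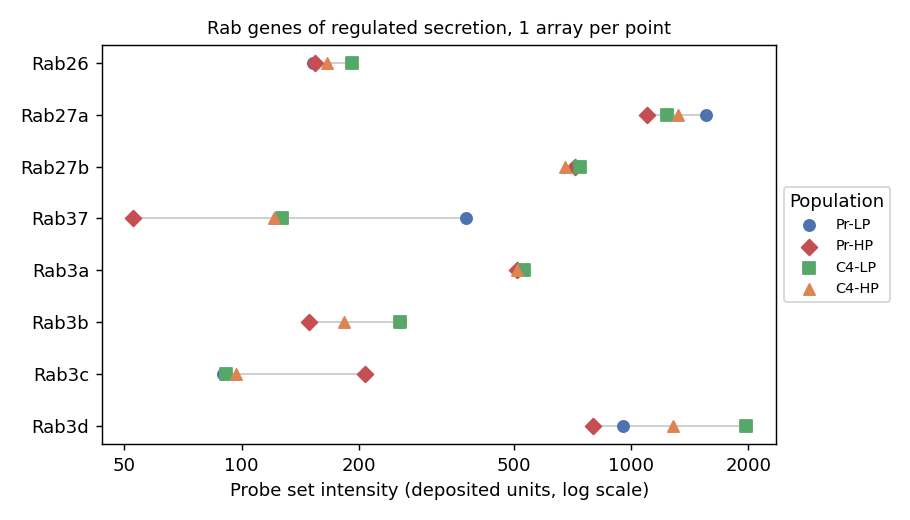
Deposited intensity (log scale, units) of the 8 Rab genes of regulated secretion in the 4 populations, 1 array per point. Rab37 runs from 52.5 units in Pr-HP to 377 in Pr-LP, Rab3c is raised in Pr-HP alone at 208 units, and Rab3d is highest in C4-LP at 1969 units.

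Rab3d, found on granules of exocrine and other secretory cells, had its highest value in C4-LP. It gave 953 units in Pr-LP, 799 in Pr-HP, 1969 in C4-LP and 1277 in C4-HP. Both clone 4 populations were above both parental ones, C4-LP clearly so. The responder mean of 1399.9 ± 519 units (SD, n = 3) exceeded Pr-HP by 0.74 on the log2 scale (limma adjusted p = 0.674). This difference was 0.47 without C4-LP and 0.25 with the cell line as a block, which leaves only Pr-LP minus Pr-HP. Clone 4 exceeded the parental cells by 0.86 (limma unadjusted p = 0.028, adjusted p = 0.924). A second probe set repeated the order of the populations at 521, 379, 949.5 and 634 units. Bhlha15 (Mist1), a transcription factor of exocrine secretory cells and 1 of the 8 duct and acinar markers, read 244 units in Pr-LP, 292 in Pr-HP, 522 in C4-LP and 338 in C4-HP. Its clone 4 values were likewise the higher ones, but Pr-HP was above Pr-LP. The rest of that list was mixed. Cpa1 (66.0 to 76.6 units) and Ptf1a (134 to 145.1 units) had the population order of Rab3d within narrow ranges, while Krt7 and Krt19 were highest in Pr-LP, at 2085 and 223 units, Cela1 was lowest in C4-LP at 732 units, Sox9 was lowest in Pr-LP at 688 units, and Amy2a5 was under the floor. The part of Bhlha15 in the Rab3d values was not tested.

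Rab3b, a close relative of Rab3a, paired Pr-LP with C4-LP. Its values were 255 units in Pr-LP, 149 in Pr-HP, 254 in C4-LP and 183 in C4-HP, so that in each line the high passage was the lower (log2 difference of responder cells from Pr-HP 0.62, limma adjusted p = 0.553). Rab27a, which recruits the granuphilin and exophilin effectors to insulin granules, read 1556 units in Pr-LP, 1098 in Pr-HP, 1238 in C4-LP and 1319 in C4-HP. Pr-HP was the lowest without a wide gap (log2 difference 0.31, limma adjusted p = 0.636). With the cell line as a block, which leaves only Pr-LP minus Pr-HP, the difference was 0.50.

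The other granule Rabs hardly moved. Rab3a, the main Rab3 of β cells, stayed between 508 and 532 units, and Rab27b, the second Rab27, between 675 and 739 units. For Rab26, which serves granule maturation, the values were 153 units in Pr-LP, 154 in Pr-HP, 192 in C4-LP and 166 in C4-HP. Their log2 differences between responder cells and Pr-HP were 0.032, -0.013 and 0.14, and none passed limma (adjusted p of 0.949, 0.983 and 0.842).

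The upstream sequences of Rab3c and Rab3d show what lies before a start of 2 secretion genes that differed in order, Rab3c with Pr-HP highest and Rab3d with C4-LP highest. They are the 250 bases before 1 RefSeq start of each gene in GRCm38.p6, read 5′ to 3′ on the gene's own strand, which is the minus strand for both. The annotated gene reaches past the whole window for Rab3c and a few bases into it for Rab3d, so each has a further start upstream of the one used. Capitals mark matches, on either strand, to the E-box CAGCTG (Rab3c) and to TGACG, the first bases of a cAMP response element (Rab3d).
Rab3c, chr13:110280207-110280456: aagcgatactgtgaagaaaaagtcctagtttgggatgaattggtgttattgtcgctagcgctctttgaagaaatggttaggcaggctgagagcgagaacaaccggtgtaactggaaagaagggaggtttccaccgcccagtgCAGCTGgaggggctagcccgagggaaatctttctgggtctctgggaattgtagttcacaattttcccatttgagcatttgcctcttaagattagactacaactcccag
Rab3d, chr9:21918184-21918433: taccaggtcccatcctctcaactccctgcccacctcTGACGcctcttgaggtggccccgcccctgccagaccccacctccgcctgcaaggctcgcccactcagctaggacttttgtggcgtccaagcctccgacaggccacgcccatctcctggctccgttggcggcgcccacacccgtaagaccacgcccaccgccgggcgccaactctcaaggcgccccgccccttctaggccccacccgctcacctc

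The windows differ in base composition, with 47.6% G or C before Rab3c and 69.2% before Rab3d. CAGCTG is present in 13% of all 32851 promoter windows of this length and TGACG in 17.8%. The other motifs searched on both strands were the E-box CACGTG (6.02% of windows) and the full element TGACGTCA (1.55%), which contains TGACG, and neither window holds them. Among the 56 windows of the 44 Rab genes with an entry, TGACG was present in 41.1%, beside 25.1% of the 12554 windows of tested genes. The shares of the others were 14.3% beside 12.4% for CAGCTG, 8.93% beside 8% for CACGTG and 3.57% beside 2.31% for TGACGTCA. These matches describe letters and are not evidence of binding.

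Of the Rabs of polarised delivery and recycling all 10 were tested, 8 with a lower mean in responder cells and 2 with a higher one, at a median log2 difference of -0.13, and Pr-HP was above all 3 responder populations for 5 and below them for 1, beside 29.6% and 27.8% of all genes. No gene of the group passed limma (lowest adjusted p 0.257).

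Rab11a, the Rab of the recycling endosome, gave 1163 units in Pr-LP, 1802 in Pr-HP, 1065 in C4-LP and 1139.5 in C4-HP. The responder values were close together and below Pr-HP, with a log2 difference of -0.68 (limma adjusted p = 0.257). Its other probe sets, at -0.57 and -0.32, had the same sign. Rab35, which directs recycling from early endosomes to the plasma membrane, read 493 units in Pr-LP, 629 in Pr-HP, 358 in C4-LP and 479 in C4-HP (log2 difference -0.52, limma adjusted p = 0.572). Here C4-LP was the low population and the other 2 responder values were nearer Pr-HP, and its further probe sets gave -0.73 and -0.052. Rab13, a Rab of cell junctions, read 132 units in Pr-LP, 162 in Pr-HP, 121 in C4-LP and 117 in C4-HP (log2 difference -0.40, limma adjusted p = 0.387). The exocytic Rab8a, in contrast, stayed within 1642 to 1819 units.

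Early endosome Rabs were divided. Of the 11, all tested, 4 had a higher and 7 a lower mean in responder cells, with a median log2 difference of -0.0089. Rab5b, a Rab5 isoform of early endosome fusion, was the flattest of the 48 at 245.9 to 246.8 units. Rab4b had the lowest difference of the group (log2 difference -0.39, limma adjusted p = 0.724). Its values were 605 units in Pr-LP, 999.8 in Pr-HP, 933 in C4-LP and 787 in C4-HP. Rab4a, which acts in rapid recycling to the surface, had the highest difference of the group. It gave 349.8 units in Pr-LP, 317 in Pr-HP, 607 in C4-LP and 459 in C4-HP, so both clone 4 populations were above both parental ones, the same order as Rab3d. Responder cells exceeded Pr-HP by 0.54 on the log2 scale (limma adjusted p = 0.692). This difference was 0.34 without C4-LP and 0.14 with the cell line as a block, which leaves only Pr-LP minus Pr-HP.

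Among the late endosome and lysosome Rabs, 5 of 8 were tested, with a median log2 difference of 0.0075. Rab7, the Rab of late endosomes, stayed within 1152 to 1349.6 units. Rab9, which returns mannose 6-phosphate receptors from late endosomes to the Golgi, read 754 units in Pr-LP, 1040.2 in Pr-HP, 525 in C4-LP and 689.6 in C4-HP. Pr-HP was above all 3 and C4-LP the lowest (log2 difference -0.68, limma adjusted p = 0.512). Rab24, which is linked to autophagy, was low in Pr-LP alone, at 512 units against 857 in Pr-HP, 1081 in C4-LP and 862 in C4-HP. In the test of Pr-LP against the other populations it had a log2 difference of -0.86 (limma unadjusted p = 0.011, adjusted p = 0.843).

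For the endoplasmic reticulum and Golgi, 11 of 13 genes were tested, 6 with a higher and 5 with a lower mean in responder cells and a median log2 difference of 0.055. Rab33b, a Golgi Rab that also acts in autophagy, gave 937 units in Pr-LP, 790.1 in Pr-HP, 1105 in C4-LP and 1199.7 in C4-HP (log2 difference 0.44, limma adjusted p = 0.553). Pr-HP was the lowest and both clone 4 populations the highest, but the probes of this set can bind related sequences, and a second probe set gave 0.14. The chosen probe set gave 0.25 with the cell line as a block, which leaves only Pr-LP minus Pr-HP. Rab1a and Rab2a, the general Rabs of traffic between the endoplasmic reticulum and the Golgi, were each set apart by a different population. Rab1a was low in Pr-LP (594 units, against 815 to 857 units elsewhere), and Rab2a was high in C4-LP (2056 units, against 1360 to 1553 units elsewhere). The remaining 4 genes were in no other role group, and the 3 tested had a median log2 difference of -0.25.

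**Figure D3:**
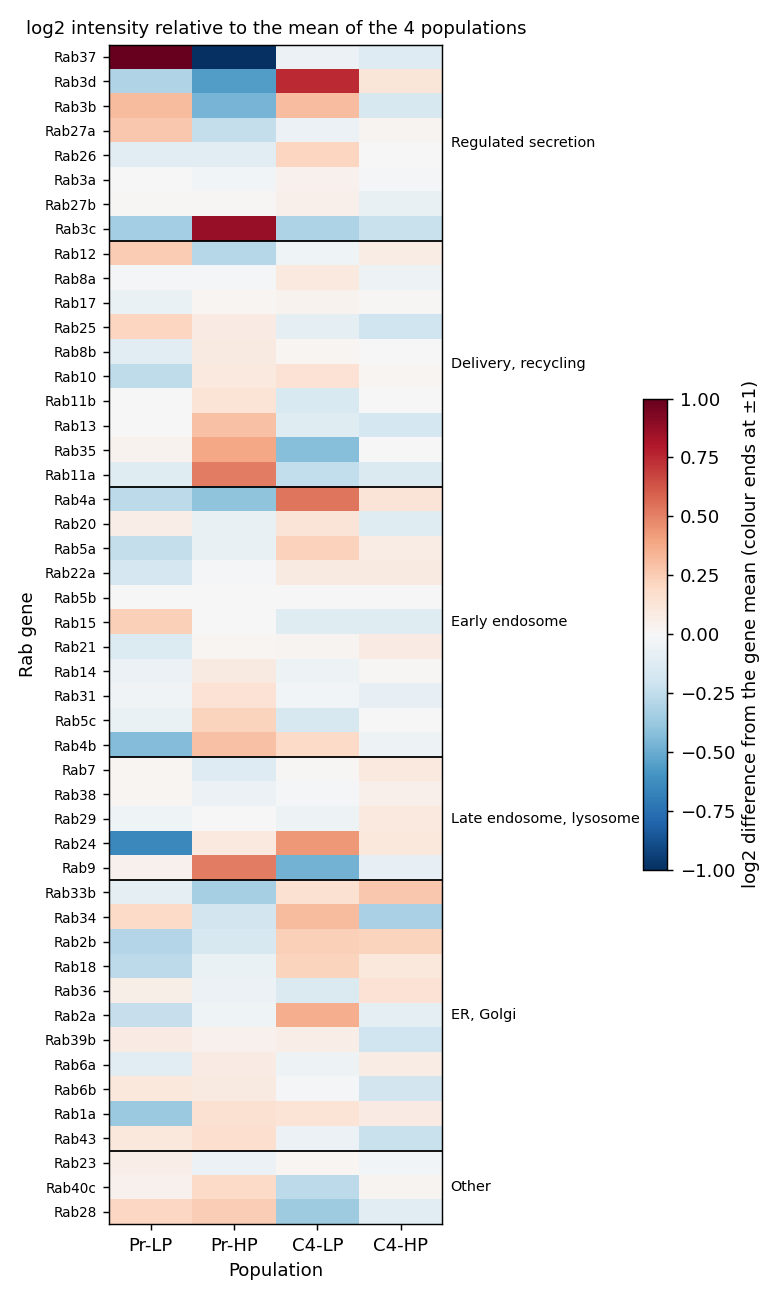
Log2 intensity of each Rab gene tested in each population (columns) relative to the mean of that gene over the 4 populations, with genes in rows ordered by role. Rab37 is the darkest row, high in Pr-LP and low in Pr-HP, Rab3d is high in C4-LP and Rab3c in Pr-HP, and colours end at 1 on the log2 scale, which Rab37 exceeds in Pr-LP and in Pr-HP.

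Several probe sets of a gene give a partial check, since they differ in probe positions and chip but not in the RNA. Of the 48 genes, 21 had at least 2 probe sets tested, with 30 probe sets beyond the chosen ones. The sign of the responder difference matched that of the chosen probe set in 21 of the 30, and in all further probe sets of 15 of the 21 genes. Where the chosen difference was at least 0.3 on the log2 scale, all other probe sets had the same sign in 6 of 6 genes. These counts include the chip B probe set of Rab3c, which passed the filter through Pr-HP alone. Its sign was thereby fixed, and it is no check. The mismatches were in genes with a small chosen difference. Rab14, an endosome and Golgi Rab, gave -0.12 on its chosen probe set and 0.23 and 0.25 on the others, and Rab22a, an early endosome Rab, gave 0.021 on its chosen one and -0.24 to 0.061 on 4 others.

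**Figure D4:**
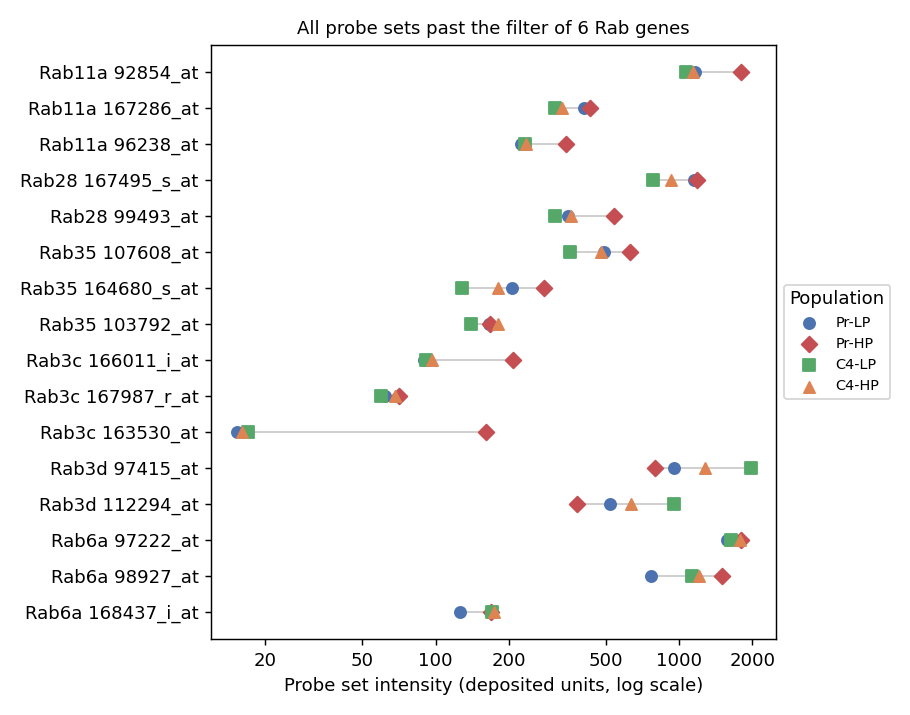
Deposited intensity (log scale, units) of every tested probe set of Rab11a, Rab28, Rab35, Rab3c, Rab3d and Rab6a in the 4 populations, 1 array per point, with probe sets in rows. Pr-HP is the highest on all 3 Rab3c probe sets, of which that on chip B passed the filter through Pr-HP alone. C4-LP is the highest on both Rab3d probe sets, at 1969 and 949.5 units.

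The next comparisons asked whether any other population, or clone 4 as a line, stood apart in its Rab genes. No Rab gene and no probe set of the arrays (0%) passed limma in any of these 4 tests. At an unadjusted p of 0.05 in limma, 5 of 48 Rab genes (10.4%, beside 6.02% of all genes) differed in Pr-LP, namely Rab10, Rab1a, Rab24, Rab37 and Rab4b. For C4-LP the count was 6 (12.5%, beside 5.77%), with Rab28, Rab2a, Rab35, Rab3d, Rab40c and Rab4a. For C4-HP it was 0, beside 1.94% of all genes. For clone 4 against the parental cells it was 5 (10.4%, beside 5.72%), with Rab28, Rab2b, Rab33b, Rab3d and Rab4a. Past 2-fold there was 1 Rab gene in these tests, Rab37, higher in Pr-LP (2.08%, beside 0.807% of all genes). The other counts past 2-fold were 0, beside 0.831% of all genes lower in Pr-LP, 1.04% higher and 0.375% lower in C4-LP, 0.245% higher and 0.505% lower in C4-HP, and 0.522% higher and 0.514% lower in clone 4.

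By order alone, both clone 4 populations were above both parental ones in 10 of 48 Rab genes (20.8%, beside 16.9% of all genes) and below both in 11 (22.9%, beside 18%). The higher group was Rab18, Rab21, Rab22a, Rab24, Rab26, Rab2b, Rab33b, Rab3d, Rab4a and Rab5a, and the lower group was Rab11a, Rab11b, Rab13, Rab15, Rab25, Rab28, Rab35, Rab40c, Rab43, Rab6b and Rab9. C4-LP was the highest population for 15 (31.2%, beside 23%) and the lowest for 10 (20.8%, beside 25.7%). Pr-LP was the highest for 9 (18.8%, beside 27.1%) and the lowest for 17 (35.4%, beside 26.7%). C4-HP was the highest for 7 (14.6%, beside 20.4%) and lowest for 10 (20.8%, beside 19.8%).

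Single-array ratios between populations have no test, and they share arrays with each other and with the tests above. Pr-HP over Pr-LP was past 2-fold higher for Rab3c (1 of 48, beside 2.07% of all genes) and past 2-fold lower for Rab37 (1 of 48, beside 1.59%). In clone 4 no Rab gene passed 2-fold between passages in either direction, beside 0.359% of all genes higher and 0.995% lower in C4-HP. At low passage C4-LP over Pr-LP was past 2-fold higher for Rab24 and Rab3d (2 of 48, beside 1.84%) and lower for Rab37 (1 of 48, beside 1.17%). At high passage C4-HP over Pr-HP was past 2-fold higher for Rab37 (1 of 48, beside 1.13%) and lower for Rab3c (1 of 48, beside 1.74%). Thus Rab37 was higher in clone 4 than in Pr-HP and lower than in Pr-LP. Past 3-fold, Rab37 in Pr-HP over Pr-LP was the 1 Rab gene (2.08%, beside 0.62% of all genes lower). The other counts past 3-fold were 0, beside 0.75% of all genes higher in Pr-HP over Pr-LP, 0.114% higher and 0.253% lower in C4-HP over C4-LP, 0.538% higher and 0.212% lower in C4-LP over Pr-LP, and 0.334% higher and 0.628% lower in C4-HP over Pr-HP.

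The regulators of the Rab cycle gave no limma call in any of the 5 tests, beside 0.0815% of all genes in the comparison of responder cells with Pr-HP and 0% in the others. The median log2 differences below stand beside -0.0004 over all genes. A list of 9 genes held the GDI, escort and prenyl transferase genes and also Rabac1, Yipf1 and Yipf5. Of these 7 were tested, with a median log2 difference between responder cells and Pr-HP of -0.052. Pr-HP was above all 3 responder populations for 3 and below them for 0, beside 29.6% and 27.8% of all genes. For Rabggta the gap was slight, at 535.8 units in Pr-HP and up to 535.5 in the responder cells. Of 34 exchange factors 26 were tested, with a median of 0.0025. The extremes were Dennd4c, an exchange factor for Rab10, at 489 units in Pr-LP, 152 in Pr-HP, 190.4 in C4-LP and 289.7 in C4-HP (log2 difference 0.98, limma adjusted p = 0.669), and Trappc4, a subunit of the TRAPP complex for Rab1, at 445, 777, 584 and 541 units in the same order (-0.58, limma adjusted p = 0.487). Pr-LP was the high population for Dennd4c, as for Rab37, and Pr-HP the high one for Trappc4.

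Of 35 GAPs 29 were tested, with a median of 0.055, and 1 was past 2-fold, beside 1.02% of all genes past 2-fold higher in responder cells and 1.5% lower. This was Sgsm1, a GAP with a RUN domain, at 472 units in Pr-LP, 231 in Pr-HP, 596 in C4-LP and 411 in C4-HP (log2 difference 1.08, limma adjusted p = 0.340). Pr-HP was the lowest and did not overlap with the responder cells, while 2 further probe sets gave 0.44 and -0.085. At the other end, Usp6nl, a GAP for Rab5, read 370.4 units in Pr-LP, 653 in Pr-HP, 458 in C4-LP and 324 in C4-HP (-0.78, limma adjusted p = 0.425).

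The effectors of Rab3 and Rab27 couple the granule Rabs to the release machinery, and 10 of 16 were tested, with a median of 0.065. Rph3al (Noc2), which binds Rab3 and Rab27 on granules, gave 1263 units in Pr-LP, 413 in Pr-HP, 486 in C4-LP and 632 in C4-HP. Pr-LP was high, C4-LP lay only a little above Pr-HP, and C4-HP lay further above it (log2 difference 0.82, limma adjusted p = 0.724). Mlph (melanophilin), a Rab27a effector that links granules to myosin, was the lowest of the group in responder cells, at 190.2 units in Pr-LP, 214 in Pr-HP, 171 in C4-LP and 162 in C4-HP (-0.30, limma adjusted p = 0.549). Sytl4 (granuphilin), which docks insulin granules through Rab27a, was chosen after its values were seen. The study itself had listed Sytl4 from these arrays as lower in C4-LP than in Pr-LP and in C4-HP. It read 1539 units in Pr-LP, 915 in Pr-HP, 427 in C4-LP and 1315 in C4-HP, with C4-LP and not Pr-HP as the low population, and its second probe set gave 1321, 815, 434 and 1103 units.

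**Figure D5:**
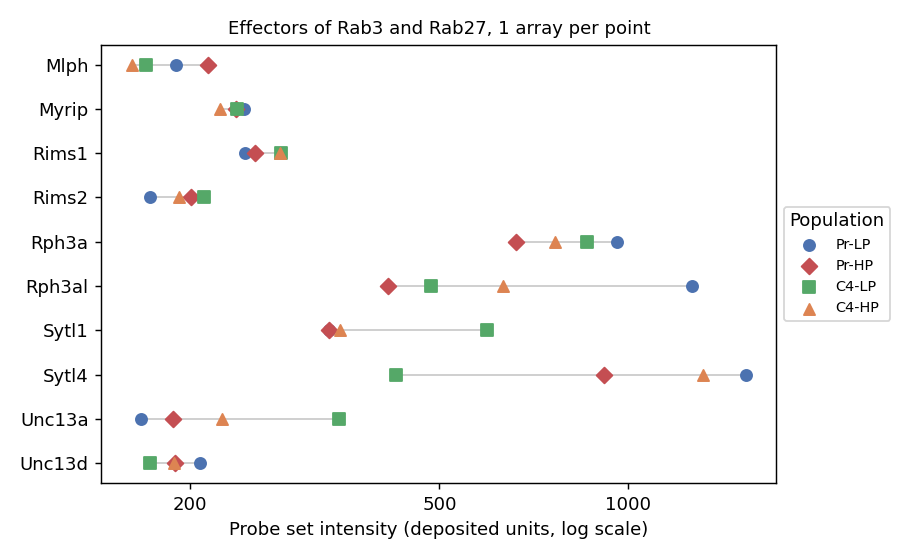
Deposited intensity (log scale, units) of the 10 tested effectors of Rab3 and Rab27 in the 4 populations, 1 array per point. Sytl4 spans 427 to 1539 units with C4-LP lowest, Rph3al spans 413 to 1263 units with Pr-HP lowest, and Mlph differs little.

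Of 35 effectors of endosomal and Golgi Rabs 30 were tested, with a median of 0.063, and none was past 2-fold. Uso1 (p115), the Golgi tether of Rab1, read 532 units in Pr-LP, 628 in Pr-HP, 1282 in C4-LP and 799 in C4-HP (log2 difference 0.38, limma adjusted p = 0.865). Its C4-LP value was the high one, as for Rab2a and Rab3d. Golga5, a golgin, had 313 units in Pr-LP, 492 in Pr-HP, 411 in C4-LP and 349 in C4-HP, the lowest difference of the list (-0.47, limma adjusted p = 0.553).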

How the data were processed

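The authors hybridised biotin-labelled RNA to Affymetrix MG_U74v2 chips and deposited 1 linear intensity per probe set and array, and the methods name the GeneChip 5.1 software. Summarisation and normalization were not given in the sources used, but the medians of the arrays of a chip were nearly equal. From the deposited intensities, 198 control probe sets were left out, values under the 20th percentile of a chip were raised to it, and probe sets with at least 1 array above the 40th percentile (23340) were fitted on the log2 scale within each chip in limma 3.58.1 under R 4.3.3, with Benjamini-Hochberg adjustment over 3 chips. The fit has 2 residual degrees of freedom, and the spread comes from 3 responder populations that are not replicates. Tables were made in Python 3.11.15 with pandas 2.3.3. Annotation came from the platform, with all 54 symbols found in RefSeq, and 31 of the genes had several probe sets. Gene lists and members were chosen with earlier results of these data known, Rab10os and Rab26os were set apart after their symbols were seen, and roles follow general knowledge. Genes named with every value were those of regulated secretion, the 5 largest differences in each direction, those past 2-fold in a single-array ratio with the higher value at 100 units or more, and the extremes of each regulator list; others were chosen after their values were seen. Alternatives were the floor, the filter, the scaling, the choice of probe set, each population left out and the cell line as a block. In the comparison of responder cells with Pr-HP that block leaves only Pr-LP minus Pr-HP, since both clone 4 populations are responder cells.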

Additional observations from a re-analysis of the deposited data

Results flagged for a closer look

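Rab24 went opposite ways with passage in the 2 lines. Pr-HP was 0.74 above Pr-LP on the log2 scale, and C4-HP stood -0.33 from C4-LP. Each is a ratio of 2 single arrays, and the difference between the lines was not tested.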

How the results depend on the processing

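By its chosen probe set, no Rab gene was called by limma under any of the alternatives run, in any of the 5 tests. Of the 103 alternative values of counts and medians, 99 kept their direction and range. The counts past 2-fold that moved did so when 1 population was left out, from 0 to between 0 and 1 in C4-LP against the others and from 0 to between 0 and 2 in clone 4 against the parental cells. Of the single gene values, 324 kept direction and call, 5 turned sign, 3 gained a call and 2 moved. No Rab gene was called to begin with, so there was no call to lose. The second Rab3c probe set crossed the limma threshold under 3 alternatives (the floor at 1.0 unit, 2%-trimmed mean scaling and no filter), but its responder values were under the floor, and these calls are not read as support. With the median over all probe sets of a gene, Rab11a moved to -0.57 and Rab33b to 0.29. Small differences turned sign in the comparison of responder cells with Pr-HP. Rab24 ran from -0.37 without C4-LP to 0.17 without Pr-LP and was -0.74 with the cell line as a block. Rab27b ran from -0.041 without C4-LP to 0.024 without C4-HP and was 0.0047 with that block, and Rab26 was -0.013 with it. The blocked values are only Pr-LP minus Pr-HP, so that of Rab24 repeats the ratio flagged above. In clone 4 against the parental cells Rab3c was -0.53, and between -1.14 without Pr-LP and 0.072 without Pr-HP. The cause was not tested. With 1 array per population and chip, error within a population is unknown, and differences under the floor cannot be read.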

Other observations

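The symbols kept apart from the GTPases gave values of their own. Rab3ip (Rabin8), an exchange factor for Rab8, read 405 units in Pr-LP, 519.5 in Pr-HP, 403 in C4-LP and 403 in C4-HP, with Pr-HP the highest. Its other tested probe set read 277, 327, 278 and 321 units in that order, with C4-HP near Pr-HP. On its probe sets that were not tested Pr-HP was the lowest. Rab5if read 1424 units in Pr-LP, 1942 in Pr-HP, 1833 in C4-LP and 1894 in C4-HP, with Pr-LP the lowest. Rab44, a large Rab with further domains, stayed between 156 and 182 units.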
